A study of Homo sapiens with 4 samples.

Results

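The TRIM (tripartite motif) family of ubiquitin ligases was examined in A549, an established line derived from a human lung adenocarcinoma and labelled as alveolar basal epithelial cells, after knockdown of the RNA-binding protein RALY. Members were the protein-coding genes of GENCODE release 29 whose symbol is TRIM followed by a digit, apart from TRIM28, which left 77 of the 78 such genes, out of 58735 genes in the count files. That rule uses no measured value, but it was set with earlier results of these data known. Of the 4 libraries, 2 came from cells infected with a lentivirus carrying a hairpin against RALY (shRALY, genotype RALY knockdown) and 2 from cells given a lentivirus with a control hairpin instead (shControl, genotype WT). Both groups were of the same line, both were infected, and both are labelled day 2. Because every library came from infected cells, the comparison holds no uninfected reference.

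TRIM proteins share an amino-terminal RING finger, B-box and coiled coil, and differ at the carboxy terminus, where a PRY-SPRY, NHL, COS, PHD-bromodomain or other module picks the partner. The RING transfers ubiquitin from an E2 enzyme to a substrate, and a few members lack it. Several members act in antiviral defence: some bind viral capsids or antibody-coated virions, others modify the RNA sensor RIG-I or its adaptors, and part of the family is induced by interferon. Others work at the centriole, on microtubules, in muscle or as chromatin readers.

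Polyadenylated RNA was sequenced, and the deposited counts summed to between 16745818 and 18632787 per library. RALY itself checked the labels, at 40.9 and 41.5 CPM in the shRALY libraries, against 123 and 133 CPM in the shControl libraries (log2 -1.64, SE 0.11; edgeR adjusted p = 5.85e-11). Levels are given as normalised read counts (CPM, TMM-scaled), and each change as log2 of shRALY over shControl with edgeR's quasi-likelihood test, adjusted by Benjamini-Hochberg over all 15912 genes tested, with a threshold of 0.05. The labels do not say that replicates were separate cultures, so these p-values rest on a spread between 2 libraries per group that may be technical. For each gene, edgeR estimates that spread partly from all tested genes. In bulk RNA, fewer cells expressing a gene and less of its RNA per cell cannot be told apart. The 6 epithelial markers summed to 9291 and 9396 CPM in shRALY, against 8163 and 8890 CPM in shControl, and 3 of them were higher. Of 5 type II alveolar markers, the lipid transporter ABCA3 was at 88.4 and 102 CPM in shRALY, against 72.2 and 103 CPM in shControl, and did not pass. The defining surfactant genes were near 0: SFTPB averaged 0.201 CPM in shRALY and 0.113 CPM in shControl, and SFTPC, SFTPA1 and NKX2-1 averaged at most 0.115 CPM in either group. Of 7 immune markers, CD3E, MS4A1 and LYZ had 0 counts in every library. CD14 was detected, at a mean of 6.57 CPM in shRALY and 7.32 CPM in shControl, and did not pass. ITGAM was also detected, at a mean of 2.97 CPM in shRALY and 3.74 CPM in shControl, and did not pass. The summed level of all 7 was 11.3 and 8.13 CPM in shRALY, against 10.6 and 11.6 CPM in shControl, most of it from CD14 and ITGAM.

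Of the 77 TRIM genes, 46 had enough counts to be tested. In shRALY, 17 were higher and 5 lower, and 24 did not pass. The background was high: 41.0% of all tested genes passed, 20.6% as higher and 20.4% as lower, against 37.0% and 10.9% of the tested TRIM genes. By 2-fold or more, 10 of the 46 tested TRIM genes were higher and 2 lower, against 6.99% and 6.57% of all tested genes. The 2 lower were TRIM17 and TRIM59, and TRIM59 is uncertain because other genes overlap its exons. The median log2 fold change of the tested members was 0.26, against -0.01 over all tested genes. Both shRALY libraries lay above both shControl libraries for 28 of the 46 and below for 11, with backgrounds of 34.2% and 35.4%, and the groups overlapped for the other 7. Only in shControl did both libraries of TRIM17 reach the count minimum (33 and 42 counts, against 6 and 17 in shRALY). For TRIM74 this held only in shRALY (32 and 27 counts, against 6 and 13 in shControl). Their directions were thus partly tied to the filter, and both genes are in the counts above. Summed over the family, TRIM genes took 2475 and 2560 CPM in shRALY, against 1754 and 1873 CPM in shControl.

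**Figure D1:**
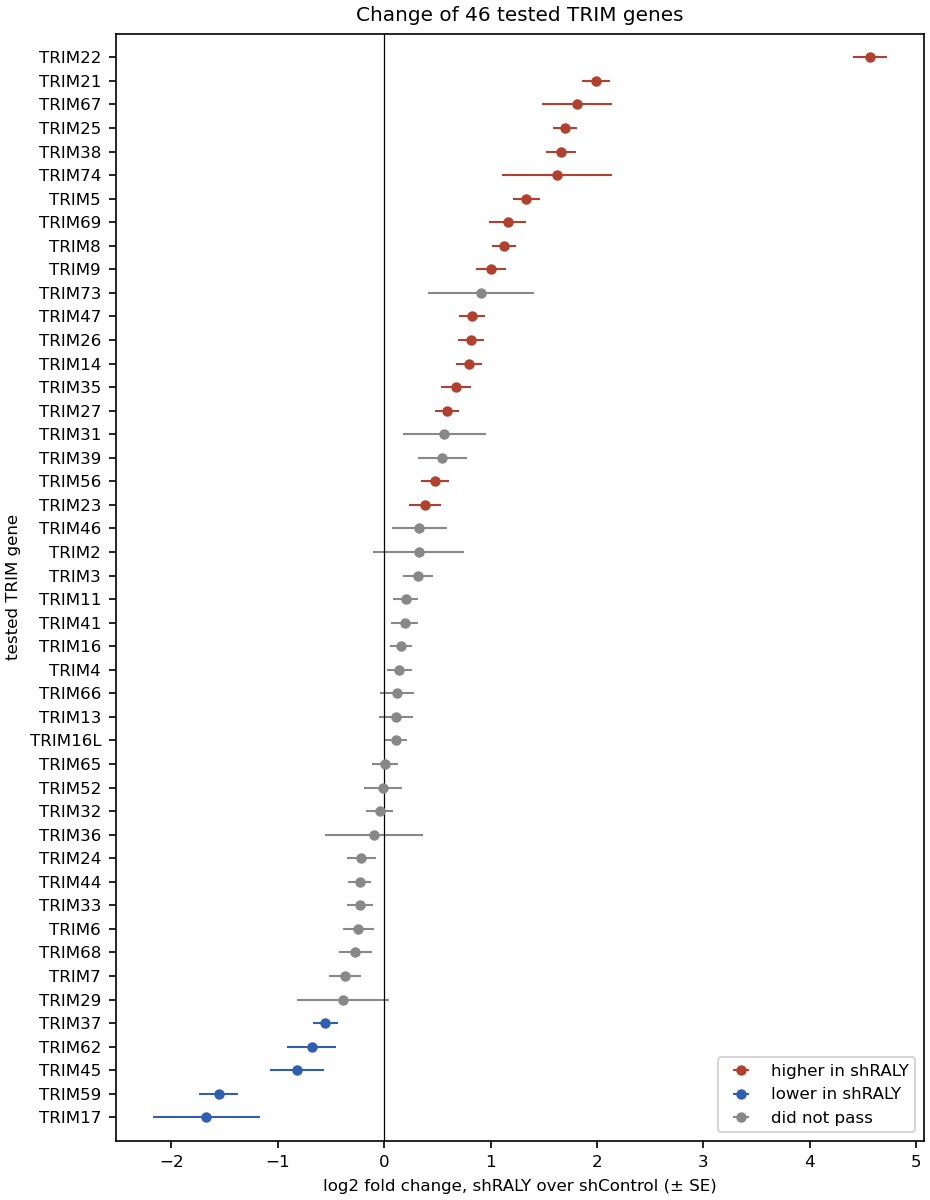
Log2 fold change of shRALY over shControl (horizontal axis) for the 46 tested TRIM genes, ordered by size; points are edgeR estimates and bars are ± 1 SE. TRIM22 stands at 4.56, the next gene, TRIM21, at 1.99, and 5 genes lie on the lower side past the test.

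Most members of a list of antiviral TRIM genes were higher in shRALY. The list holds 10 genes that act against viruses or in their sensing, drawn up from known roles (TRIM5, TRIM14, TRIM21, TRIM22, TRIM25, TRIM26, TRIM34, TRIM38, TRIM56 and TRIM69). All but TRIM34 were tested, and each of the 9 was higher, with log2 fold changes from 0.48 to 4.56 and a median of 1.34. Over all tested genes, 20.6% were higher. The list need not hold every member with such a role. The list was made with earlier results of these data known, including a rise of interferon genes, so its direction is not independent evidence. TRIM4 and TRIM65, which also act in RNA sensing, are outside the list and did not pass (log2 0.14 and 0.01). As a sum, these 10 genes stood at 847 and 923 CPM in shRALY, against 325 and 370.0 CPM in shControl.

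TRIM22, an interferon-induced ligase that restricts several viruses, moved most of all 46. It stood at 67.5 and 69.5 CPM in the shRALY libraries, against 2.96 and 2.82 CPM in the shControl libraries, from raw counts of 1241 and 1136 against 53 and 48. The replicates of each group almost coincided, and the groups were 23.6-fold apart (log2 4.56, SE 0.16; edgeR adjusted p = 6.38e-16). TRIM5, a cytoplasmic factor that recognises incoming retroviral capsids, had 64.1 and 69.2 CPM in the shRALY libraries, against 27.8 and 24.9 CPM in the shControl libraries (2.53-fold; log2 1.34, SE 0.12; edgeR adjusted p = 7.69e-09). These neighbours on chromosome 11 lie on opposite strands, TRIM22 at chr11:5689689-5737089 within the annotated bounds of TRIM5 at chr11:5663557-5938619 (GRCh38). TRIM21, a cytosolic antibody receptor that marks antibody-bound virions for degradation, had 57.9 and 53.7 CPM in the shRALY libraries, against 14.3 and 13.9 CPM in the shControl libraries. That made it 3.96-fold higher (log2 1.99, SE 0.13; edgeR adjusted p = 3.08e-11), with no overlap between the groups.

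TRIM25, which attaches ubiquitin to RIG-I and so promotes its signalling, was the most abundant of the listed antiviral members. Its level was 336 and 374 CPM in the shRALY libraries, against 102 and 117 CPM in the shControl libraries (3.25-fold; log2 1.70, SE 0.11; edgeR adjusted p = 1.94e-11). In shRALY it supplied 13.6% and 14.6% of the summed CPM of TRIM genes, against 5.82% and 6.24% in shControl. TRIM38, a brake on inflammatory and antiviral signalling, was at 44.0 and 47.1 CPM in the shRALY libraries, against 14.8 and 14.0 CPM in the shControl libraries (3.16-fold; log2 1.66, SE 0.14; edgeR adjusted p = 1.20e-09). For both genes the groups lay far apart relative to their replicates, and the difference between the 2 changes was not tested.

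The other tested members of the antiviral list showed smaller rises. TRIM69, reported to restrict vesicular stomatitis virus, had 23.1 and 22.7 CPM in the shRALY libraries, against 11.8 and 8.69 CPM in the shControl libraries (2.23-fold; log2 1.16, SE 0.17; edgeR adjusted p = 8.48e-06). TRIM26, which acts on the transcription factor IRF3, had 77.1 and 89.7 CPM in the shRALY libraries, against 44.8 and 49.9 CPM in the shControl libraries (1.76-fold; log2 0.82, SE 0.12; edgeR adjusted p = 7.90e-06). Both groups were well apart for each of these, with replicates closer together than the groups. TRIM14, an adaptor of MAVS signalling that lacks a RING, stood at 76.9 and 82.1 CPM in the shRALY libraries, against 41.1 and 50.2 CPM in the shControl libraries (1.74-fold; log2 0.80, SE 0.12; edgeR adjusted p = 1.31e-05). TRIM56, linked to ubiquitination in the cGAS and STING pathway, had 99.6 and 115 CPM in the shRALY libraries, against 65.4 and 88.7 CPM in the shControl libraries (1.39-fold; log2 0.48, SE 0.13; edgeR adjusted p = 0.00547). The groups of TRIM56 did not overlap, but without shRALY replicate 2 the call was lost (log2 0.38, edgeR adjusted p = 0.144).

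**Figure D2:**
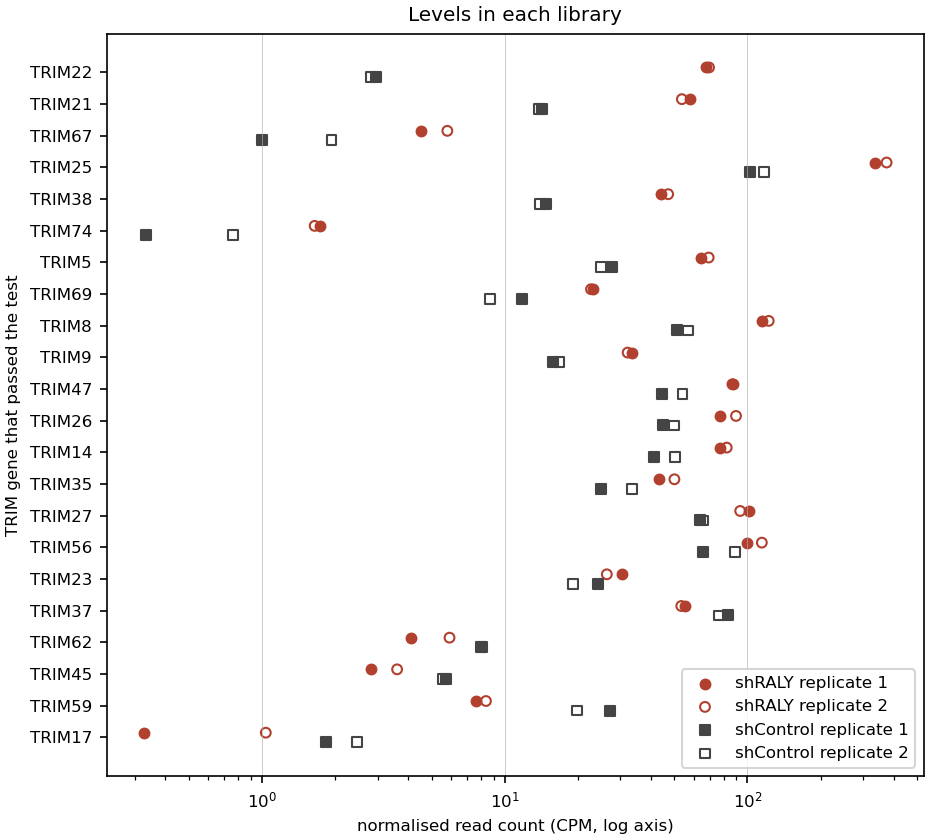
Normalised read counts (CPM, log axis) of the 22 TRIM genes that passed the test, with 1 point per library: circles are shRALY, squares are shControl, filled for replicate 1 and open for replicate 2. For every gene drawn, both shRALY points lie on the same side of both shControl points. The genes were drawn because they passed, so this separation is not a further result. Over all tested genes, both shRALY libraries lay above both shControl libraries for 34.2% and below for 35.4%. TRIM22 is at 67.5 and 69.5 CPM in shRALY, against 2.96 and 2.82 CPM in shControl.

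Promoter sequences were read beside these values because interferon-induced genes often carry an interferon-stimulated response element, a repeat of GAAA bound by IRF factors. RefSeq windows on GRCh38.p14, from 250 bases before to 50 bases after an annotated start, matched 60 of the 77 members by symbol, in 80 windows. Among the members that passed, TRIM22, TRIM8, TRIM27, TRIM35 and TRIM45 were not matched. The core letters searched were GAAA, any 2 bases and GAAA again, or TTTC, any 2 bases and TTTC on the other strand, with overlapping matches each counted. They occurred in 3.57% of all 35116 windows and for 4.38% of all 27305 genes. Among members, the core was present for 5 of 13 matched genes that were higher, for 0 of 4 that were lower, for 3 of 18 that did not pass and for 2 of 25 not tested. These are descriptions of letters in a window, and some genes have several windows. The 5 higher genes were TRIM21, TRIM5, TRIM14, TRIM26 and TRIM69; the 3 that did not pass were TRIM2, TRIM16 and TRIM44. The other 2 were TRIM34 and TRIM64C.

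The promoters of these 5 are shown 5′ to 3′ on the gene's strand, with the matched letters in capitals, because the matches differ in number and place. In TRIM21 (chr11:4393653-4393952, minus strand) a pair of overlapping matches begins 17 and 23 bases after the start. In TRIM26 (chr6:30213357-30213656, minus strand) a similar pair begins 194 and 188 bases before it. The single matches of TRIM5 (chr11:5685025-5685324, minus strand) and TRIM14 (chr9:98119173-98119472, minus strand) begin 27 and 26 bases before the start. That of TRIM69 (chr15:44736278-44736577, plus strand) begins 62 bases before it.
TRIM21: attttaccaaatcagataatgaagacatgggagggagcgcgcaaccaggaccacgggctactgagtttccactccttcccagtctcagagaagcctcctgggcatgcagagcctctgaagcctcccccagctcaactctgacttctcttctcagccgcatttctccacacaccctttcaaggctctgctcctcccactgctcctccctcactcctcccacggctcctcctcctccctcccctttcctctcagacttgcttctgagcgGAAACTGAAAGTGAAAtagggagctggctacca
TRIM5: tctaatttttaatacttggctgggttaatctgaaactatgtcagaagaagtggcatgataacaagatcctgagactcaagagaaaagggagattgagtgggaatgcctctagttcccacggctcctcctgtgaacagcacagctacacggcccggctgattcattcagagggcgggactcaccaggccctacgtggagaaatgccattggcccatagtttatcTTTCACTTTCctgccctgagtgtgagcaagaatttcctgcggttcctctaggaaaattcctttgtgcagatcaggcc
TRIM14: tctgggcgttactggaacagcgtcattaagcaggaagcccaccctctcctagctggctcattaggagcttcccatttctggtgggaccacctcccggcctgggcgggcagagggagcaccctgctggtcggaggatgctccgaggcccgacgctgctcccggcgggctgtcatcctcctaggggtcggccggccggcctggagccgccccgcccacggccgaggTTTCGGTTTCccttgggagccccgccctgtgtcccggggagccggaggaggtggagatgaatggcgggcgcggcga
TRIM26: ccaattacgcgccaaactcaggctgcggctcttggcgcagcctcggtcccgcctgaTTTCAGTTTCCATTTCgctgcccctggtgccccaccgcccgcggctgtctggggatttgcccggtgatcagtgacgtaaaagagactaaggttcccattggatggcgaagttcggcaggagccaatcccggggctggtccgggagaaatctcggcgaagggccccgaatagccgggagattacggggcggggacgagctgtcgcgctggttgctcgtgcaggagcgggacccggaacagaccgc
TRIM69: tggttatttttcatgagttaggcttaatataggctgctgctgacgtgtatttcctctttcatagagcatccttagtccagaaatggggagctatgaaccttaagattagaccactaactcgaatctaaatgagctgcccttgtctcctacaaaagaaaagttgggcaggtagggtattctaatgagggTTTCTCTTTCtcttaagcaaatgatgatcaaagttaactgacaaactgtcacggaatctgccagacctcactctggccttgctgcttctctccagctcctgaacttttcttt
The window of TRIM25 (chr17:56914000-56914299, minus strand) is given for contrast, since TRIM25 rose 3.25-fold and the core letters are not in this window. It does hold TTTC repeated with a single base between (tttcgtttc), which the search did not count.
TRIM25: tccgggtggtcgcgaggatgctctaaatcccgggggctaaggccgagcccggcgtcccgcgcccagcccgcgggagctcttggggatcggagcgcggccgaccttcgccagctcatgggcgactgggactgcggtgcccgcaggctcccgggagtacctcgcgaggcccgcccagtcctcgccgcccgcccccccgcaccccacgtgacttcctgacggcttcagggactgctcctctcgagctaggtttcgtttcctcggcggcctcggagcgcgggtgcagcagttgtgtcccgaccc
Among the matched genes, TRIM21 and TRIM26 each hold a pair, and were 3.96-fold and 1.76-fold higher. TRIM38, 3.16-fold higher, also holds no match in its window.

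Other higher members act in signalling, transcription or the cytoskeleton. TRIM8, which promotes NF-kB signalling, had 114 and 122 CPM in the shRALY libraries, against 51.2 and 57.1 CPM in the shControl libraries (2.19-fold; log2 1.13, SE 0.11; edgeR adjusted p = 3.23e-08). TRIM27, a RING protein of transcriptional repression first described as a fusion partner of RET, had 102 and 93.3 CPM in the shRALY libraries, against 64.0 and 65.7 CPM in the shControl libraries (1.502-fold; log2 0.59, SE 0.11; edgeR adjusted p = 0.00018). TRIM35, linked to turnover of IRF7, was at 43.1 and 50.02 CPM in the shRALY libraries, against 24.9 and 33.5 CPM in the shControl libraries (1.60-fold; log2 0.68, SE 0.14; edgeR adjusted p = 0.000558). In each of these the lowest shRALY library was above the highest shControl library. TRIM47 had 87.5 and 86.7 CPM in the shRALY libraries, against 44.3 and 54.0 CPM in the shControl libraries (1.77-fold; log2 0.83, SE 0.12; edgeR adjusted p = 6.76e-06). A total of 51.5% of its exonic bases are overlapped by the opposite-strand gene AC087289.5, which stood at 0.581 ± 0.563 CPM in shRALY and 0.887 ± 0.00898 CPM in shControl (SD, n = 2 each). TRIM23, which joins a RING to an ARF-type GTPase domain, showed the smallest rise that passed, at 30.4 and 26.4 CPM in the shRALY libraries, against 24.3 and 19.1 CPM in the shControl libraries (1.31-fold; log2 0.39, SE 0.15; edgeR adjusted p = 0.0445). The TRIM23 call was lost without any 1 of shRALY replicate 1 (edgeR adjusted p = 0.385), shRALY replicate 2 (edgeR adjusted p = 0.0814) or shControl replicate 2 (edgeR adjusted p = 0.184). It was also lost with DESeq2 (adjusted p = 0.0842) and with library size alone (edgeR adjusted p = 0.086).

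A pair of related COS-box genes known from neurons, TRIM9 and TRIM67, was also higher in these lung cells. TRIM9, which acts in axon guidance in mice, had 33.5 and 32.1 CPM in the shRALY libraries, against 15.9 and 16.8 CPM in the shControl libraries (2.01-fold; log2 1.01, SE 0.14; edgeR adjusted p = 4.21e-06). TRIM67, its close paralog, was far scarcer, at 4.51 and 5.81 CPM in the shRALY libraries, against 1.00 and 1.94 CPM in the shControl libraries (3.51-fold; log2 1.81, SE 0.33; edgeR adjusted p = 0.000116). For both genes the groups did not overlap. The other tested COS-box genes did not pass: TRIM46, which organises axonal microtubules in rodent neurons, had 8.05 and 7.95 CPM in shRALY and 4.13 and 8.63 CPM in shControl, and TRIM36 had 1.17 ± 0.188 CPM in shRALY and 1.25 ± 0.279 CPM in shControl (SD, n = 2 each). The shControl libraries of TRIM46 differed from each other by more than the group means did, and without shControl replicate 2 TRIM46 passed (log2 0.97, edgeR adjusted p = 0.00297), whereas without shControl replicate 1 its estimate was below 0 (log2 -0.11, edgeR adjusted p = 0.728). TRIM74 was low everywhere, at 1.74 and 1.65 CPM in the shRALY libraries, against 0.335 and 0.763 CPM in the shControl libraries (log2 1.62, SE 0.52; edgeR adjusted p = 0.0155). It shares 64.4% of its 50-base words with TRIM73 and other transcripts, so the division of reads between TRIM73 and TRIM74 is uncertain. Leaving out shRALY replicate 1, shRALY replicate 2 or shControl replicate 1, or using DESeq2, each ended the TRIM74 call (adjusted p = 0.0983, 0.0662 and 0.13 by edgeR, 0.0594 by DESeq2).

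The 5 lower members were TRIM37, TRIM45, TRIM59, TRIM62 and TRIM17. TRIM37, which restrains centriole assembly, was the most abundant of them, at 55.5 and 53.4 CPM in the shRALY libraries, against 83.5 and 76.2 CPM in the shControl libraries (1.47-fold lower; log2 -0.55, SE 0.11; edgeR adjusted p = 0.000431). TRIM59, a membrane-anchored ligase, had 7.62 and 8.38 CPM in the shRALY libraries, against 27.1 and 19.8 CPM in the shControl libraries (2.94-fold lower; log2 -1.55, SE 0.18; edgeR adjusted p = 3.22e-07). Both were separated between groups by more than the replicates differed. On the opposite strand, the condensin gene SMC4 overlaps TRIM59, with 34.3% of TRIM59 exonic bases covered by other genes. SMC4 itself fell to 41.7 ± 5.11 CPM in shRALY, against 195 ± 28.1 CPM in shControl (SD, n = 2 each; log2 -2.22, SE 0.13; edgeR adjusted p = 1.93e-12). The strand setting of the counting is not given in the sources used here, and the part of SMC4 reads in the TRIM59 value was not tested.

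The remaining falls rested on fewer reads. TRIM45, with a filamin repeat, stood at 2.83 and 3.61 CPM in the shRALY libraries, against 5.75 and 5.58 CPM in the shControl libraries (log2 -0.82, SE 0.26; edgeR adjusted p = 0.0133). TRIM62, implicated in epithelial polarity, stood at 4.13 and 5.93 CPM in the shRALY libraries, against 8.10 and 7.98 CPM in the shControl libraries (log2 -0.68, SE 0.23; edgeR adjusted p = 0.0212). TRIM17, a ligase linked to apoptosis of mouse neurons, was scarce, at 0.326 and 1.04 CPM in the shRALY libraries, against 1.84 and 2.47 CPM in the shControl libraries (log2 -1.67, SE 0.50; edgeR adjusted p = 0.0105). All 3 calls were lost without shRALY replicate 1, with edgeR adjusted p of 0.177 for TRIM45, 0.328 for TRIM62 and 0.169 for TRIM17. TRIM17 also lost it without shControl replicate 2 (edgeR adjusted p = 0.0731), and TRIM45 and TRIM62 with DESeq2 (adjusted p = 0.0594 and 0.0725).

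By domain class, 20 of the 43 genes put in the PRY-SPRY class were tested. Of these, 10 were higher and 2 lower, with a median log2 fold change of 0.57. The lower genes include TRIM17, whose direction was partly tied to the filter. For comparison, 37.0% of all tested TRIM genes were higher and 10.9% lower, and 20.6% and 20.4% of all tested genes. The other classes hold 3 to 6 tested genes each, too few to read against these shares. Among the 8 genes with no known carboxy-terminal domain, 6 were tested and TRIM8, TRIM56 and TRIM74 were higher. The direction of TRIM74 was also partly tied to the filter. The tested COS-box genes numbered 4 of 8, with 2 higher. Of the 5 genes put in the class without a RING, TRIM14 was higher and TRIM16, TRIM16L, TRIM29 and TRIM44 did not pass. Among the 5 genes with a MATH, ARF, filamin or transmembrane module, TRIM23 was higher, TRIM37, TRIM45 and TRIM59 were lower, and TRIM13 did not pass. The chromatin readers TRIM24, TRIM33 and TRIM66 and the tested NHL genes TRIM2, TRIM3 and TRIM32 did not pass. TRIM51GP was put in no class, and every other member was put in a single class. A class therefore need not hold every member with that feature. Differences between classes were not tested.

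**Figure D3:**
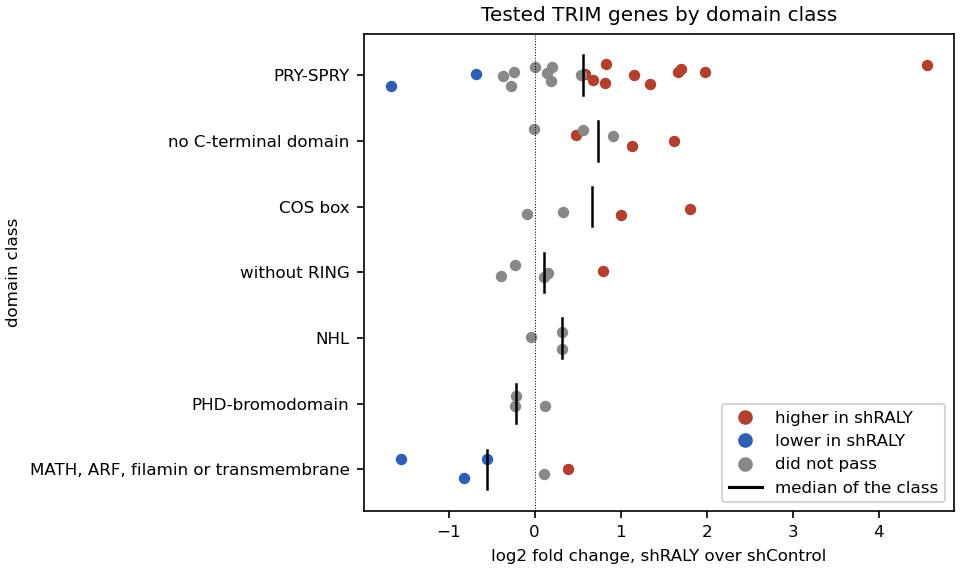
Log2 fold change of shRALY over shControl for the 46 tested TRIM genes, grouped by domain class (rows); each point is a gene, coloured by its test result, and the black bar is the class median. The PRY-SPRY row runs from -1.67 (TRIM17) to 4.56 (TRIM22). The row of MATH, ARF, filamin and transmembrane proteins holds 3 of the 5 lower genes. With 5 tested genes it is too small to set against the 20.4% lower over all tested genes.

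Many TRIM genes lie beside each other in the genome, and the results of neighbours are given here as a description, with no test of position. In the stretch of chromosome 11 from 4384897 to 8682694 (GRCh38), which holds 9 members, TRIM21, TRIM5 and TRIM22 were higher. Between TRIM21 and TRIM5 lie TRIM68 at 17.6 ± 0.594 CPM in shRALY and 21.2 ± 3.58 CPM in shControl and TRIM6 at 28.8 ± 6.78 CPM in shRALY and 34.2 ± 2.27 CPM in shControl (SD, n = 2 each), which did not pass (log2 -0.27 and -0.24). TRIM34, next to TRIM5, had 2 and 2 counts in shRALY, against 0 and 1 counts in shControl, at or under the floor of 3 counts, so no change was detectable at this depth. The read-through gene TRIM6-TRIM34 had 0 counts in every library, and 90.6% of the 50-base words of TRIM34 also occur in other transcripts, so the counting of reads in this overlap is uncertain. On chromosome 6, 9 members lie between 25962802 and 30346854, around the major histocompatibility complex. All 5 tested genes there had estimates above 0. Over all tested genes, the median log2 fold change was -0.01 and 20.6% were higher. TRIM38, TRIM27 and TRIM26 were higher, with log2 fold changes of 1.66, 0.59 and 0.82. TRIM31 (log2 0.56, SE 0.39) and TRIM39 (log2 0.54, SE 0.23) did not pass, and TRIM10, TRIM15 and TRIM40 had 0 counts throughout. TRIM39 shares 34.4% of its 50-base words with other transcripts, so its value is uncertain.

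**Figure D4:**
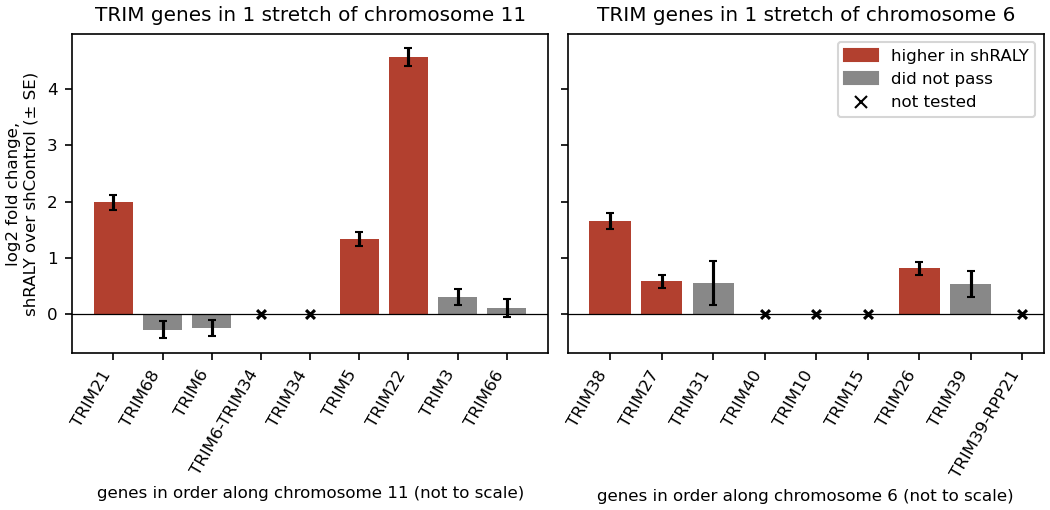
Log2 fold change of shRALY over shControl (bars, ± 1 SE) for the TRIM genes of a stretch of chromosome 11 (left) and of chromosome 6 (right), in their order along the chromosome, not to scale; crosses mark genes too scarce to test. TRIM68 and TRIM6 lie below 0 beside TRIM21, TRIM5 and TRIM22, which lie between 1.34 and 4.56.

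Many TRIM genes of this line did not pass. Per kilobase of annotated exon, the most abundant of these were TRIM16L, TRIM16, TRIM65, TRIM4, TRIM32 and TRIM44. TRIM16L had 359 and 362 CPM in shRALY and 322 and 347 CPM in shControl, a log2 fold change of 0.11 (SE 0.10). TRIM16, which lacks a RING and is linked to oxidative stress defence, had 192 and 193 CPM in shRALY and 166 and 179 CPM in shControl (log2 0.16, SE 0.10). The level of each was slightly above control in both shRALY libraries. TRIM16 shares 55.8% and TRIM16L 31.2% of its 50-base words with other transcripts, so their split is uncertain. TRIM65, a ligase of the RNA sensor MDA5, had 63.3 and 59.5 CPM in shRALY and 55.0 and 67.1 CPM in shControl (log2 0.01, SE 0.12). TRIM4, reported to modify RIG-I, had 60.4 and 62.4 CPM in shRALY and 59.6 and 51.7 CPM in shControl (log2 0.14, SE 0.12). TRIM4 and TRIM65 also act in RNA sensing but are not in the list of 10 antiviral genes above. TRIM32, mutated in a limb-girdle muscular dystrophy, had 41.3 and 44.8 CPM in shRALY and 41.2 and 47.4 CPM in shControl (log2 -0.04, SE 0.12). TRIM44 had 98.8 and 104 CPM in shRALY and 114 and 123 CPM in shControl (log2 -0.23, SE 0.11), with both shRALY libraries below control. TRIM44 did pass once shControl replicate 1 was dropped (log2 -0.29, edgeR adjusted p = 0.0064), as it did under scaling by library size alone (log2 -0.28, edgeR adjusted p = 0.0379).

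The remaining genes that did not pass ranged from log2 -0.39 (TRIM29) to 0.91 (TRIM73). TRIM33, a nuclear cofactor that ubiquitinates SMAD4, stood at 41.3 ± 2.47 CPM in shRALY and 48.4 ± 5.12 CPM in shControl (SD, n = 2 each). TRIM24, a chromatin reader that targets p53, stood at 28.1 ± 2.85 CPM in shRALY and 32.6 ± 1.76 CPM in shControl (SD, n = 2 each). TRIM7 was closest to the threshold, at 15.3 ± 0.941 CPM in shRALY and 19.8 ± 0.623 CPM in shControl (SD, n = 2 each; log2 -0.37, SE 0.15; edgeR adjusted p = 0.0605). A p above the threshold does not show that these levels were equal.

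Per length, the order of levels within the family differed between the groups. TRIM16L led in both, at 83.3 ± 0.564 CPM per kilobase of exon in shRALY and 77.2 ± 4.04 in shControl (SD, n = 2 each). TRIM25 stood at rank 2 in shRALY, with 37.4 ± 2.79 CPM per kilobase, and at rank 7 in shControl, with 11.5 ± 1.09. In shRALY the nearest below it was TRIM16 at rank 3 (34.1 ± 0.180 CPM per kilobase). TRIM21 was at rank 4 in shRALY (28.9 ± 1.56 CPM per kilobase) and at rank 14 in shControl (7.30 ± 0.161). For TRIM22 the level per kilobase was 11.4 ± 0.229 in shRALY, the same rank as TRIM32, and 0.480 ± 0.0166 in shControl, at rank 39. TRIM37 stood at rank 16 in shRALY (9.94 ± 0.279) and at rank 5 in shControl (14.6 ± 0.945), within 1 SD of TRIM65 at rank 4 there.

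A further 31 members could not be tested. Of these, 23 had 0 counts in all 4 libraries. For the 10 of them that are not uncertain, this allows a level of up to 0.161 to 0.179 CPM per library (3 counts, covering counting error only). The other 13 share sequence with, or are overlapped by, other genes, and how multiply mapping reads were counted is not given in the sources used here, so their 0 counts set no such limit. The 23 include TRIM63, a ligase of muscle wasting, the erythroid TRIM58, TRIM10, TRIM15, TRIM40, TRIM42 and TRIM50, and 13 of the 23 members on chromosome 11, among them the TRIM49, TRIM51 and TRIM64 copies. The other 8 (TRIM34, TRIM39-RPP21, TRIM43, TRIM54, TRIM55, TRIM71, TRIM72 and TRIM75P) had at most 7 counts in any library. The muscle gene TRIM54 was at 0.323 ± 0.149 CPM in shRALY and 0.231 ± 0.0891 CPM in shControl (SD, n = 2 each). Its relative TRIM55 was at 0.292 ± 0.105 CPM in shRALY and 0.198 ± 0.114 CPM in shControl (SD, n = 2 each). Muscle markers were near 0 in the same libraries, with MYH7 and MYOG at 0 counts.

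Genes that work with the TRIM family were read from the same fit, as 3 lists, against the background of 20.6% of all tested genes higher and 20.4% lower. Among 5 TRIM-type genes with other symbols, PML was higher and MID1 lower, MID2 and TRIML2 did not pass, and TRIML1 was too scarce to test. PML, the organiser of nuclear bodies, had 111 and 130.1 CPM in the shRALY libraries, against 27.3 and 33.5 CPM in the shControl libraries (3.96-fold; log2 1.98, SE 0.13; edgeR adjusted p = 1.80e-11). MID1, a microtubule-bound ligase mutated in Opitz syndrome, had 127 and 137 CPM in the shRALY libraries, against 259 and 254 CPM in the shControl libraries (log2 -0.96, SE 0.10; edgeR adjusted p = 1.02e-07). Of 15 proteins that TRIM ligases act on in innate signalling, 4 were higher and 2 lower, counts near the background shares of 20.6% and 20.4%, with a list median of 0.08. IRF7 stood at 119 ± 1.19 CPM in shRALY and 4.29 ± 0.152 CPM in shControl, and IFIH1, which encodes the sensor MDA5, at 203 ± 25.9 CPM in shRALY and 3.18 ± 0.00864 CPM in shControl (SD, n = 2 each; log2 4.79 and 5.99, edgeR adjusted p = 4.70e-17 and 3.67e-18). DDX58, which encodes RIG-I, the substrate of TRIM25, was at 333 ± 20.7 CPM in shRALY and 16.3 ± 1.04 CPM in shControl (SD, n = 2 each; log2 4.35, SE 0.13; edgeR adjusted p = 1.83e-17), and TICAM1, an adaptor of endosomal RNA sensing, at 18.4 ± 3.48 CPM in shRALY and 8.86 ± 0.679 CPM in shControl (SD, n = 2 each; log2 1.06, SE 0.18; edgeR adjusted p = 6.07e-05). MAVS (log2 -0.33; edgeR adjusted p = 0.0217) and CGAS (log2 -0.40; edgeR adjusted p = 0.0466) were lower. MAVS, the adaptor below RIG-I, no longer passed when shRALY replicate 1, shRALY replicate 2 or shControl replicate 2 was left out (edgeR adjusted p = 0.443, 0.0914 and 0.062). CGAS, the DNA sensor, no longer passed when shRALY replicate 1, shRALY replicate 2 or shControl replicate 1 was left out (edgeR adjusted p = 0.295, 0.223 and 0.0873). Under DESeq2 the adjusted p of CGAS was 0.114. The other 9, including TBK1, IRF3, TRAF3 and TRAF6, did not pass.

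Ubiquitin-conjugating E2 enzymes, from which the RING takes ubiquitin, had log2 fold changes between -0.89 and 0.47. Of 10 listed, UBE2E1, UBE2W and UBE2D3 were higher (log2 0.47, 0.46 and 0.27; edgeR adjusted p = 0.00423, 0.0214 and 0.0469). UBE2N and UBE2V1 were lower (log2 -0.34 and -0.89; edgeR adjusted p = 0.0231 and 0.0213). Both are uncertain, since 39.5% of UBE2N exonic bases are overlapped by other genes and UBE2V1 shares 81.2% of its 50-base words. Each of the 5 calls was lost without shRALY replicate 1, with edgeR adjusted p between 0.0816 (UBE2E1) and 0.296 (UBE2D3). These counts are near the background shares of 20.6% higher and 20.4% lower, and the list median was 0.01, against -0.01 over all tested genes.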

How the data were processed

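Gene expression was measured in 2 shRALY and 2 shControl libraries of A549 cells, grouped by sample title. The authors deposited whole-number counts for each Ensembl gene, with a separate file for every library and no normalisation. Per the submitters' processing notes, featureCounts 1.5.0-p3, HISAT2 2.0.5, the hg38 build and DESeq2 1.20.0 were used. For annotation release, strand setting and multiply mapping reads, the choice is not given in the sources used here. All 58735 identifiers matched GENCODE 29, which supplied symbols, biotypes and coordinates.

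The test was that of edgeR 4.0.16 under R 4.3.3 (filterByExpr, minimum count 10 and total 15; TMM; robust quasi-likelihood test, 2 residual degrees of freedom). The filter kept 15912 genes. Standard errors (SE) were derived from each log2 fold change and its F statistic, as the size of the change over root F. The script was tested on simulated data. Levels per kilobase divide CPM by the union of annotated exons. Genes are called uncertain above 20% of shared 50-base words of the longest transcript or of overlapped exonic bases. Alternatives were DESeq2 1.42.0, RLE size factors, library size alone, no robust estimation, no filter, a filter of 10 CPM in 2 libraries, leaving out each library, a block for the replicate number, protein-coding genes alone, the TRIM6 and TRIM34 counts summed, and members that share reads left out.

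Per-library values were set to be given for the passing members with the 10 highest and 10 lowest changes, if at or above 1 CPM in a group, and for the 6 most abundant per length that did not pass, with up to 4 genes per partner list. TRIM26 and TRIM47, the other passing members, and UBE2D3, MAVS, CGAS and other genes named beyond this rule were added after their values were seen. The listed gene CGAS was first entered under an older symbol and matched after the files were read. The members and lists were chosen with earlier results of these data known. Intervals and floors cover counting error only.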

Additional observations from a re-analysis of the deposited data

How the results depend on the processing

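The count of TRIM genes higher in shRALY was within 1.5 times the reported 17 under every alternative run. Of the 22 called members, 16 kept their call under every alternative in which they were tested. Among these 16, TRIM67 was too scarce for the filter of 10 CPM in 2 libraries, so its call is missing there. The other 6 (TRIM17, TRIM23, TRIM45, TRIM56, TRIM62 and TRIM74) lost the call under at least 1, and 11 members gained a call under at least 1. No called member changed sign. The count of lower TRIM genes was 3 with DESeq2 and 2 with a filter of 10 CPM in 2 libraries, against 5. The median log2 fold change of members was 0.20 with library size alone, 0.20 with no filter and 0.21 with the 10 CPM filter, against 0.26. Lower E2 genes numbered 1 with DESeq2 and 1 with the 10 CPM filter, against 2; lower innate signalling genes numbered 1 with DESeq2, 1 with RLE size factors and 1 with no filter, against 2. Leaving out 1 library at a time gave 2040 to 3559 genes higher and 1897 to 3499 lower over all genes, 14 to 21 higher and 2 to 8 lower TRIM genes, a member median of 0.20 to 0.29, 0 to 3 higher and 0 to 3 lower E2 genes, and 0 to 2 lower innate signalling genes; the remaining single library of a group is then assumed to vary like the other group. The lowest count of lower TRIM genes, 2, came without shRALY replicate 1 and the highest, 8, without shControl replicate 1. With the replicate number as a block, 3639 genes were higher and 3619 lower, with 19 and 6 among TRIM genes. The deviations of same-numbered libraries correlated at 0.095 over genes. The labels do not say whether a shared number marks a shared culture or batch, and 2 libraries per group cannot decide it. Without members that share reads, 15 were higher and 4 lower. The cause of these shifts was not tested. Depth limits the 31 untested members and the tested ones of few reads, such as TRIM17 and TRIM74.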

Other observations

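Other genes whose symbol starts with TRIM and a digit, such as pseudogenes and antisense transcripts, number 33 in the annotation. Of these, 27 had 0 counts in every library and 5 had at most 4 counts in any library. The antisense gene TRIM52-AS1 was the 1 that could be tested, at 5.16 ± 0.55 CPM in shRALY and 4.68 ± 0.64 CPM in shControl (SD, n = 2 each; log2 0.14, SE 0.24; edgeR adjusted p = 0.688), and its libraries overlapped between groups.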
